A study of Mus musculus with 24 samples.

Results

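The cytosolic ribosomal protein genes of mouse cells depleted of MOF are described here across fibroblasts and podocytes, with and without Adriamycin. Members were chosen by symbol: Rpl or Rps, followed by a number with up to 2 letters, or by a, p0, p1 or p2, with the Rps6k kinases left out and a mean normalized count of at least 10 in vehicle-treated fibroblasts. Of 43626 genes listed for fibroblasts, 90 symbols fit the pattern and 87 passed the minimum. The closest outside it in the authors' deposited table were Rps12l1, at a mean count of 1.80, Rpl3l at 0.342 and Rpl10l at 0, and the closest inside were Rps12l2 at 20.5 and Rps3a3 at 36.9. The 87 symbols comprise 76 core ribosomal proteins (31 of the small 40S subunit and 45 of the large 60S subunit) and 5 paralogs of them (Rpl22l1, Rpl36al, Rpl39l, Rpl7l1 and Rps27l). Another 4, Rps12l2, Rps3a2, Rps3a3 and Rps4y2, are annotated as pseudogenes in GENCODE M21. Rps19bp1, which the pattern also took, encodes no ribosomal protein but a protein known in human cells to bind RPS19 and SIRT1. The row listed as Rpl24 encodes none either: GENCODE M21 names its Ensembl ID Zbtb11, a zinc finger gene on chromosome 16, and gives the name Rpl24 to a neighbouring ID that the MEF tables list with no symbol and the rule did not take. Fau, which encodes a ribosomal protein fused to a ubiquitin-like moiety, has another kind of symbol and is not among the 87.

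RNA was measured by poly(A) sequencing in 24 samples that form 8 groups of 3. Mouse embryonic fibroblasts (MEFs, passage 2) were Mof knockout or wild type, and MPC5 podocytes, an established mouse line from the filter cells of the kidney, had been differentiated (passage 20) with either a Mof knockdown or a scramble control. The groups were Mof knockout MEFs with Adriamycin, wild-type MEFs with Adriamycin, Mof knockout MEFs with vehicle and wild-type MEFs with vehicle, then Mof-knockdown podocytes with Adriamycin, scramble podocytes with Adriamycin, Mof-knockdown podocytes with vehicle and scramble podocytes with vehicle. Adriamycin, the DNA-damaging topoisomerase II poison doxorubicin, acted for 24 h, in MEFs at 0.1 µg/ml and in podocytes at 0.25 µg/ml, and vehicle was DMSO. How the knockout was made, which construct lowered Mof in podocytes and whether the 3 samples of a group were separate cultures are not given in the sources used here, so p-values here reflect sample spread that may be only technical. In bulk RNA, fewer cells of a type and less RNA per cell cannot be told apart.

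MOF, the product of Kat8, is an acetyltransferase of histone H4. A ribosome holds a small subunit, which reads the mRNA, and a large subunit, which joins amino acids, and each of its proteins is normally needed in a single copy per ribosome, apart from the acidic proteins of the stalk. The mRNAs of these proteins are among the most abundant of a growing cell, and most begin with a terminal oligopyrimidine (TOP) tract, a run of C and T through which the mTOR pathway and LARP1 control their translation. When assembly is disturbed, free Rpl5 and Rpl11 bind MDM2 together with the 5S rRNA and thereby stabilise p53.

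Start regions of 10 members are shown because they belong to the members that results below turn on: those higher in both MEF comparisons, those lower in podocytes with vehicle, and Rpl22l1. Each runs 5′ to 3′ on the gene's own strand, from 40 bases before to 20 bases after the RefSeq transcription start on GRCm38.p6, and capitals mark its longest run of C and T. Their positions are chr7:45128726-45128785 (minus strand) for Rpl13a, chrX:37085203-37085262 (minus) for Rpl39, chr5:107900488-107900547 (plus) for Rpl5, chr7:141447611-141447670 (plus) for Rplp2 and chr17:27635225-27635284 (minus) for Rps10. The others lie at chr7:118116128-118116187 (minus) for Rps15a, chr17:24720023-24720082 (plus) for Rps2, chr9:44407674-44407733 (plus) for Rps25, chr17:33824543-33824602 (minus) for Rps28 and chr3:28805468-28805527 (plus) for Rpl22l1.
Rpl13a: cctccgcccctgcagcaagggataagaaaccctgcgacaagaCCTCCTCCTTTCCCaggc
Rpl39: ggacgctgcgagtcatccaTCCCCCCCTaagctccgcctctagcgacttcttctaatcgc
Rplp2: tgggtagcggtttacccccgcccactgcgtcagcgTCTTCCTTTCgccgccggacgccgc
Rps10: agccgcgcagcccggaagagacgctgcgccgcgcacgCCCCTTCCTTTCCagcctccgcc
Rps15a: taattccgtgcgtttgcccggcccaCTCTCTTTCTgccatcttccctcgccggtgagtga
Rps28: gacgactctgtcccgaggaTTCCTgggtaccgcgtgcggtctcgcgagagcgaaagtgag
Rpl5: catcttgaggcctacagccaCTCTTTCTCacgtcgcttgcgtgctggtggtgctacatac
Rps2: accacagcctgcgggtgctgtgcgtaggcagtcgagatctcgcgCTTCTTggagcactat
Rps25: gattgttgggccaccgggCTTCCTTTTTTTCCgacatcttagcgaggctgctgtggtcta
Rpl22l1: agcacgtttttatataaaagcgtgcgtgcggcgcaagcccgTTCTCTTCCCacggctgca

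Annotated gene spans of GENCODE M21 begin up to 1947 bases before these RefSeq starts, farthest in Rps2 and next in Rps10 (1425), so other transcripts of the same gene can start elsewhere. The run was 14 bases long in Rpl13a and Rps25, 13 in Rps10, 10 in Rplp2, Rps15a and Rpl22l1, 9 in Rpl39 and Rpl5, 6 in Rps2 and 5 in Rps28. By symbol, 56 core genes were matched to 66 RefSeq promoter entries of 300 bases. A run of at least 8 C or T on the gene's strand lay within 50 bases of the start in 81.8% of the core entries, against 32.7% of 12848 entries of genes tested in MEFs with Adriamycin and 35.7% of all 32851 entries. A run of at least 8 A or G in the same window, which is the mirror of that search on the other strand, was in 22.7% of the core entries, against 36.2% and 38.1%. CCGGAAG, a form of the site bound by ETS-family factors, was searched on both strands of the 300 bases and was in 37.9% of the core entries, against 16.3% and 8.86%. AAGATGGC, a form of the YY1 site, was in 10.6% of the core entries, against 4.16% and 2.75%, and TATAAA was in 9.09%, against 7.28% and 13.6%. Matches are letters in a window, not measured binding.

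All values that follow are from the 4 tables in which the authors compared Mof-depleted with control samples of 1 cell type and drug condition. A fold change divides Mof-depleted by control and is given as log2 with its standard error (SE), and a gene counts as changed where the adjusted p of DESeq2, as run by the authors, lies below 0.05. The tables give 1 mean normalized count per gene and no value per sample, so depth per library is unknown, no groups can be checked for overlap, and the SE stands for the spread. Kat8 itself was at -1.71 ± 0.16 (SE) with Adriamycin and -1.96 ± 0.20 with vehicle in MEFs, and at -1.24 ± 0.14 and -1.49 ± 0.15 in podocytes, in the authors' deposited tables, and the direction of all fold changes was read from its sign. The fibroblast genes Col1a1 and Vim had mean counts of 116732 and 106592 in MEFs with Adriamycin, while Nphs1, a slit diaphragm gene that marks mature podocytes, is not listed in the podocyte tables and was at 0.505 in those MEFs. Of 9 fibroblast markers, 2 were higher and 2 lower in knockout MEFs with Adriamycin (22.2% each), against 16.6% and 16.1% of all tested genes. With vehicle 2 were higher and 1 lower (22.2% and 11.1%), against 17.8% and 19.6%. Lum was at 1.30 ± 0.23 with Adriamycin and 2.42 ± 0.21 with vehicle, and Col1a2 at -0.48 ± 0.20 and -0.33 ± 0.11. Of 7 leukocyte markers matched, 0 were higher in MEFs with Adriamycin by DESeq2 as run by the authors (0 at an unadjusted p below 0.05) and 4 with vehicle (57.1%). The shares of all tested genes that were higher were 16.6% and 17.8%. Summed mean counts of these markers were 4437 and 2901, and their part in the results was not tested. In both podocyte tables every listed gene has an adjusted p below 0.05, so a member that is not listed there either missed the threshold or was not tested.

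In MEFs given Adriamycin, Mof knockout cells had more mRNA of most ribosomal proteins than wild-type cells. Of the 87 members, 67 rose and 0 fell, against 16.6% of 14139 tested genes higher and 16.1% lower in the authors' deposited table. Of the 4609 tested genes whose mean count reached 1000, as it did for 79 members, 27.8% were higher. The median fold change of the 76 core genes was 0.27, or 1.21-fold, beside a median of -0.02 over all tested genes and of 0.07 over those 4609. With fold changes taken relative to that 0.07, an alternative chosen after the data were seen, 41 of the 87 members were higher. At an unadjusted p below 0.05, 72 members were higher and 0 lower, and 80 had a positive fold change.

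The fold changes of the core genes lay close together. The SD of their fold changes was 0.0765 on the log2 scale, the median SE of 1 gene was 0.0806, and 73 of the 76 lay within 2 SE of the core median. Both subunits took part: 24 of 31 small-subunit genes rose, with a median of 0.25, and 40 of 45 large-subunit genes rose, with a median of 0.28. The changed members ran from 0.19 to 0.54.

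**Figure D1:**
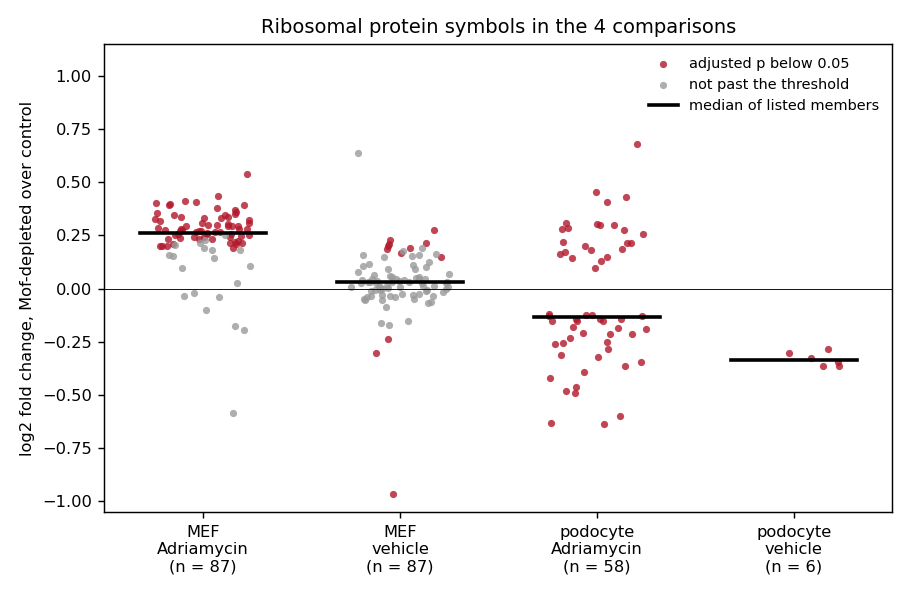
Log2 fold change (vertical axis, Mof-depleted over control) of each member listed in the 4 comparisons; points are genes, spread sideways only to be seen, red where the adjusted p lies below 0.05, and the bar is the median of the listed members. The 87 points of MEFs with Adriamycin centre on 0.26, those of MEFs with vehicle on 0.03, and the 58 members listed for podocytes with Adriamycin lie on both sides of 0; tables for podocytes list changed genes only.

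The acidic stalk of the large subunit recruits the translation factors that hydrolyse GTP, and its genes rose in knockout MEFs with Adriamycin. Rplp0, which anchors the stalk, rose by 0.34 ± 0.10 (adjusted p = 0.0041, DESeq2 as run by the authors), and had 33517 mean counts in the authors' deposited table. Its partners Rplp1 and Rplp2 rose by 0.39 ± 0.07 and 0.35 ± 0.07 in the authors' deposited table, with mean counts of 22372 and 9135. Rpl12, which sits at the base of the stalk, had the highest fold change of the 87, at 0.54 ± 0.09 or 1.45-fold, with a mean count of 12194 and an adjusted p of 1.79e-07 from DESeq2 in the authors' deposited table. Per kilobase of annotated exon, Rplp1 had the highest mean count of the core genes in that table (44833, over 499 bases), followed by Rplp0 (20203), and Rpl35a the lowest (1137), beside a core median of 4106, with exons pooled from all transcripts of a gene.

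Other large-subunit genes with large fold changes in knockout MEFs with Adriamycin were Rpl13 (0.41 ± 0.09), Rpl13a (0.41 ± 0.07), Rpl35 (0.40 ± 0.09) and Rpl38 (0.39 ± 0.09) in the authors' deposited table. Rpl35 lies near the exit of the tunnel through which the new protein leaves, and Rpl38 is known in the mouse for its part in translating Hox mRNAs. Rpl14 rose by 0.37 ± 0.07 with one of the 4 smallest adjusted p of the members, 1.11e-06 from DESeq2 in the authors' deposited table. The p53-linked pair of the 5S particle, Rpl5 and Rpl11, rose by 0.30 ± 0.07 and 0.23 ± 0.07 in the authors' deposited table, close to the core median. Rpl4, a lining protein of the exit tunnel with a mean count of 24617, rose by 0.23 ± 0.07 in the authors' deposited table.

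In the small subunit the largest fold change was that of Rps3, a protein of the mRNA entry channel, which rose by 0.40 ± 0.08 (adjusted p = 4.64e-06, DESeq2 as run by the authors). Its neighbour Rps2 rose by 0.35 ± 0.10 at a mean count of 22780 in the authors' deposited table. Rpsa, known also as the laminin receptor precursor, rose by 0.22 ± 0.09, and Rps6, the substrate of S6 kinase, by 0.21 ± 0.08 in the authors' deposited table. Both are among 7 members that no longer passed when the p-values were adjusted over every gene that has one.

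Among the 12 core genes that did not pass in MEFs with Adriamycin were Rpl3, Rpl31, Rpl36, Rpl37a, Rpl9, Rps13, Rps16, Rps21, Rps27, Rps29 and Rps7. Their fold changes in the authors' deposited table ran from 0.10 for Rps21 to 0.25 for Rpl31, so all 12 were positive. Rps7, Rpl31 and Rpl9 missed narrowly, with adjusted p of 0.0517, 0.0526 and 0.053 from DESeq2 in the authors' deposited table. Those that stood lowest were Rps21 (0.10 ± 0.08), Rpl3 (0.11 ± 0.08) and Rpl37a (0.15 ± 0.08).

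Outside the core, 3 of 11 members rose and 0 fell (27.3% and 0%), against 16.6% and 16.1% of all tested genes. Of the 5 paralogs, Rpl36al (0.27 ± 0.10) and Rps27l (0.21 ± 0.09) rose in knockout MEFs with Adriamycin in the authors' deposited table. Rpl22l1 (-0.03 ± 0.13), Rpl39l (-0.10 ± 0.36) and Rpl7l1 (0.03 ± 0.08) did not pass there. Rps19bp1 rose by 0.44 ± 0.12 in the same table, at a mean count of 679. The row listed as Rpl24, which is Zbtb11 by its ID, was at -0.02 ± 0.12 with Adriamycin and -0.06 ± 0.10 with vehicle in MEFs and did not pass in the authors' deposited tables. The ID that GENCODE M21 names Rpl24, a protein of the large subunit, rose by 0.47 ± 0.16 in MEFs with Adriamycin (adjusted p = 0.0147, DESeq2 as run by the authors) at a mean count of 698, and was at 0.07 ± 0.13 with vehicle, not past the threshold, in the authors' deposited tables. It is in none of the counts given here. Elsewhere Rpl36al fell by 0.42 ± 0.08 in podocytes with Adriamycin, and in MEFs with vehicle Rpl36al (0.05 ± 0.08), Rpl39l (-0.04 ± 0.33), Rpl7l1 (-0.15 ± 0.08) and Rps19bp1 (-0.05 ± 0.12) did not pass in the authors' deposited tables. The 4 pseudogene symbols had fold changes between -0.59 and -0.04 and none passed (0 at an unadjusted p below 0.05, DESeq2 as run by the authors), with mean counts from 24.1 to 807 in the authors' deposited table. Of 46 further ribosomal protein pseudogenes with an adjusted p in that table, 3 were higher and 2 lower, against 16.6% and 16.1% of all tested genes. Reads of a ribosomal protein gene and of its near-identical processed copies can be exchanged or lost in counting, so single values of both are uncertain.

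With vehicle, few members changed in fibroblasts. In MEFs with vehicle 9 members rose and 3 fell in the knockout, against 17.8% of 15605 tested genes higher and 19.6% lower in the authors' deposited table. That is 10.3% and 3.45% of the members. At an unadjusted p below 0.05, 15 were higher and 4 lower. The core median was 0.03, and 68 of 76 core genes lay within 2 SE of it. The 9 that rose were Rpl13a, Rpl19, Rpl39, Rplp1, Rplp2, Rps10, Rps15a, Rps27l and Rps28. All 9 were also among those that rose with Adriamycin, as did 67 of all 87 members (77.0%). Their sizes were small, from 0.15 for Rps10 to 0.27 ± 0.07 for Rps27l in the authors' deposited table. Rplp1 stood at 0.22 ± 0.08 and Rplp2 at 0.19 ± 0.08 with vehicle, and Rplp0 at 0.13 ± 0.07, with an adjusted p of 0.138 from DESeq2 in the authors' deposited table. Rpl13a was at 0.23 ± 0.06, Rps28 at 0.21 ± 0.07 and Rpl19 at 0.20 ± 0.07 in the same table.

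The largest change of any member in MEFs with vehicle was a fall. Rpl22l1 (chromosome 3, 28805436 to 28807424, plus strand, protein coding), the paralog of Rpl22 whose mRNA the Rpl22 protein is known to repress in mouse cells, was at -0.96 ± 0.10, which is 51.3% of the wild-type level, with an adjusted p of 2.09e-21 from DESeq2 in the authors' deposited table. Rpl22 itself was at 0.09 ± 0.07 there, with an adjusted p of 0.313 (DESeq2 as run by the authors). Rpl3, which reaches into the peptidyl transferase centre, fell by 0.30 ± 0.09, and Rpl10a, a protein of the L1 stalk, fell by 0.24 ± 0.09 in the authors' deposited table. Rpl10a was the only member lower with vehicle and higher with Adriamycin, where it rose by 0.28 ± 0.08.

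Whether the effect of the knockout differed between the drug conditions was tested gene by gene in MEFs, by subtracting the vehicle fold change from the Adriamycin one and dividing by their joint SE (two-sided z test, Benjamini-Hochberg over 13973 genes). Of the 87 members, 9 had a higher fold change with Adriamycin and 0 a lower one, or 10.3%, against 3.49% of all genes higher and 3.61% lower. The difference was positive for 81 of the 87, with a median of 0.21 beside -0.02 over all genes, and at an unadjusted p below 0.05 there were 36 members higher and 0 lower. The fold changes of the members with Adriamycin and with vehicle come from different samples and separate normalizations. The count was 18 with fold changes taken relative to the median of all tested genes of their table and 4 relative to the median of genes whose mean count reached 1000.

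Rpl22l1 had the largest difference, 0.93 ± 0.16, from fold changes of -0.03 with Adriamycin and -0.96 with vehicle in the authors' deposited tables (adjusted p = 2.18e-06, z test with Benjamini-Hochberg adjustment). Rpl10a followed at 0.52 ± 0.12, with 0.28 and -0.24. Rpl3 differed by 0.41 ± 0.12, with 0.11 and -0.30 in the authors' deposited tables. These are the 3 members that fell with vehicle. For the other 6 the fold change with vehicle did not pass: Rps20, at the head of the small subunit, differed by 0.40 ± 0.11, Rpl12 and Rpl13 by 0.38 ± 0.12 each, Rpl14 by 0.36 ± 0.11, and Rpl18 and Rpl7a by 0.33 ± 0.11 each. Rpl8 was the closest that missed, with an adjusted p of 0.0518 by the same test and adjustment. Rps27l, in contrast, had nearly equal fold changes of 0.21 with Adriamycin and 0.27 with vehicle in the authors' deposited tables.

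**Figure D2:**
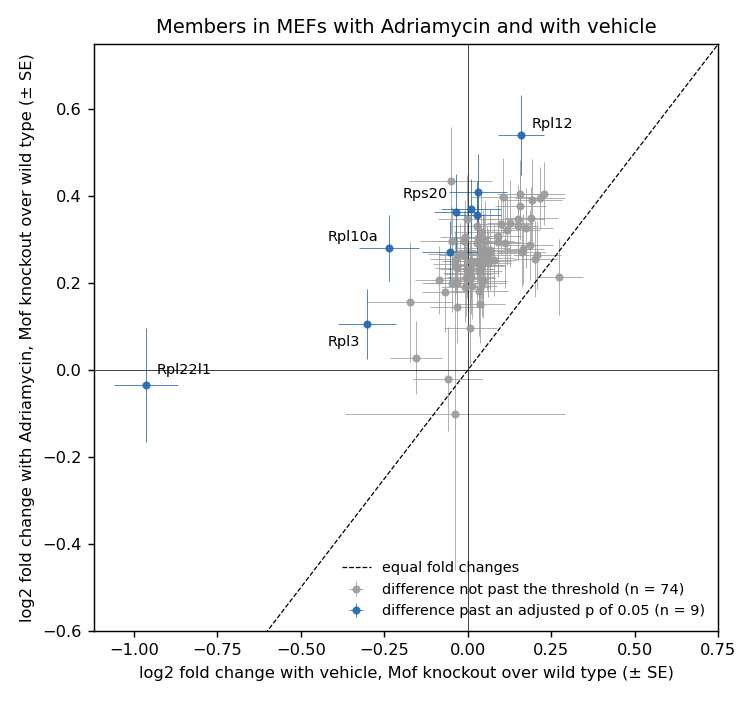
Log2 fold change of knockout over wild-type MEFs with Adriamycin (vertical axis) and with vehicle (horizontal axis) for the 83 members that are not annotated pseudogenes; bars are 1 SE and the dashed line marks equal fold changes. Most points lie above the line, and the 9 in blue passed the test of the difference, with Rpl22l1 far to the left at -0.96 with vehicle.

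In podocytes with Adriamycin the ribosomal protein genes went both ways. After Mof knockdown 24 members rose, 34 fell and 29 were not listed, against 27.8% of 17184 tested genes higher and 27.9% lower in the authors' deposited table. The members' shares were 27.6% higher and 39.1% lower. Both subunits were split: 9 small-subunit core genes rose and 14 fell, and 13 large-subunit core genes rose and 17 fell.

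Among the falls, Rplp0 was at -0.60 ± 0.05, which is 65.9% of the scramble level, with the smallest adjusted p of the members, 1.95e-31 from DESeq2 in the authors' deposited table. Rplp1 fell less, by 0.25 ± 0.11, and Rplp2 was not listed. In the small subunit Rps21 was at -0.64 ± 0.08, the lowest of all, Rps28 at -0.49 ± 0.05 and Rps2 at -0.48 ± 0.05 in the authors' deposited table. Rps19bp1 fell by 0.63 ± 0.08 in the authors' deposited table. Rps3, the leading small-subunit gene of knockout MEFs with Adriamycin, fell by 0.31 ± 0.04 here.

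Among the rises, Rpl22l1 was highest at 0.68 ± 0.09 or 1.60-fold, with a mean count of 613 and an adjusted p of 3.54e-13 from DESeq2 in the authors' deposited table. Rpl22, its paralog, also rose, by 0.28 ± 0.06. Rpl14 rose by 0.45 ± 0.06 and Rpl3 by 0.41 ± 0.04, and Rpl7l1, a paralog of Rpl7 that acts in assembly of the large subunit, by 0.43 ± 0.06 in the authors' deposited table. Rpl7 fell by 0.15 ± 0.04 in that table. In the small subunit Rps9 rose by 0.31 ± 0.04, Rps20 by 0.30 ± 0.05 and Rpsa by 0.30 ± 0.06 in the authors' deposited table. Rpl10a rose by 0.30 ± 0.05, and Rpl5 by 0.16 ± 0.05, while Rpl11 was not listed.

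Among the genes listed for podocytes with Adriamycin, all of them past the threshold, the fold change differed with exon length. Over all listed genes the median fold change was -0.47 for genes with up to 1000 bases of exon, -0.37 up to 2000, -0.24 up to 4000 and 0.22 above 4000, in the authors' deposited table for podocytes with Adriamycin. The core medians in those classes were -0.25, -0.12, 0.12 and -0.25, from 7, 23, 18 and 5 genes, and did not follow that order throughout. Fold change and exon length had a Spearman rank correlation of 0.20 across the 53 core genes listed there, as a description. In MEFs with Adriamycin the medians of all tested genes were 0.07, 0.08, 0.02 and -0.06, and the core medians were 0.26, 0.27, 0.24 and 0.36. The median exon length was 2030 bases for the 22 core genes that rose in podocytes with Adriamycin and 1734 for the 31 that fell. The part of length in these results was not tested.

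The members that rose in knockout MEFs with Adriamycin were split in knockdown podocytes with Adriamycin. Of the 67, 18 rose, 30 fell and 19 were not listed in podocytes. Among all 87 members 24 rose and 34 fell there (27.6% and 39.1%), against 27.8% and 27.9% of all tested genes. Across the 53 core genes listed in both tables, the fold changes had a Spearman rank correlation of -0.07, given as a description across genes, which are not independent. Dose, cell type and the way Mof was lowered all differ between these comparisons.

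**Figure D3:**
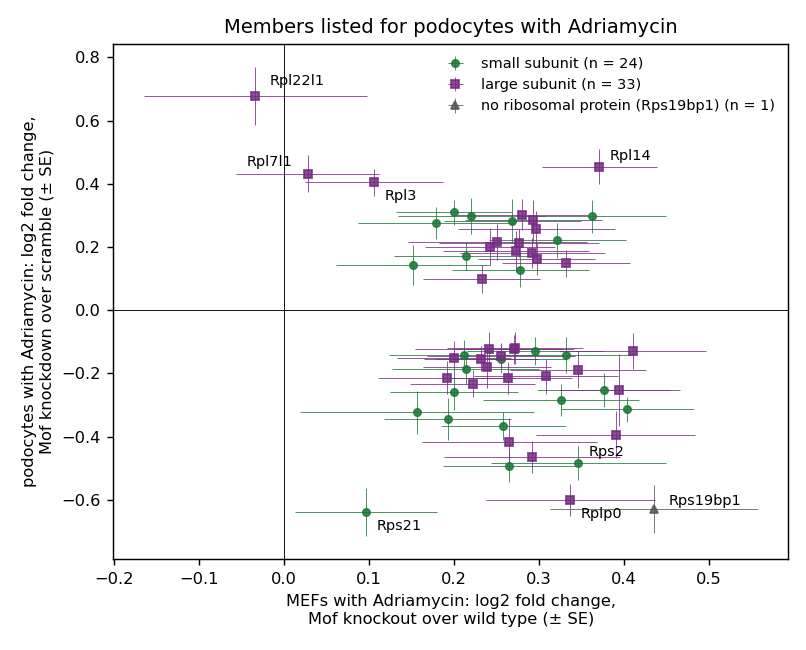
Log2 fold change in podocytes with Adriamycin (vertical axis, Mof knockdown over scramble) and in MEFs with Adriamycin (horizontal axis, Mof knockout over wild type) for the 58 members listed for podocytes; bars are 1 SE, circles small-subunit, squares large-subunit genes and the triangle Rps19bp1. All points but that of Rpl22l1 lie to the right of 0, and they are split between 24 above and 34 below 0 on the podocyte axis.

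With vehicle, few members were listed for podocytes. After knockdown 6 fell and 0 rose (DESeq2 as run by the authors), against 5.64% of 13876 tested genes lower and 8.7% higher in the authors' deposited table, and no unadjusted p or other tool is at hand for the 81 that are not listed. The members' share of falls was 6.90%, near that of all tested genes. Rps2 was at -0.36 ± 0.10, with an adjusted p of 0.00634 from DESeq2 in the authors' deposited table, and Rps12 at -0.36 ± 0.11, Rps14 at -0.34 ± 0.11 and Rps25 at -0.32 ± 0.10. Rpl5 was at -0.30 ± 0.11 and Rps27l at -0.28 ± 0.10 in the authors' deposited table. Rps2, Rps14, Rps25 and Rps27l were lower in both podocyte tables, while Rpl5 fell with vehicle and rose with Adriamycin. All 6 were among the members that rose in MEFs with Adriamycin, as did 67 of all 87 members (77.0%).

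Rps27l was the only member past the threshold in all 4 comparisons. With p-values adjusted over every gene that has one, its adjusted p in MEFs with Adriamycin was 0.0832 (Benjamini-Hochberg on the p of DESeq2), and no member passed in all 4. Rps27l encodes a paralog of Rps27 and is known as a p53 target. Its fold change was 0.21 ± 0.09 with Adriamycin and 0.27 ± 0.07 with vehicle in MEFs, and -0.18 ± 0.05 with Adriamycin and -0.28 ± 0.10 with vehicle in podocytes, in the authors' deposited tables. It was higher in both MEF comparisons and lower in both podocyte comparisons. Rps27 was at 0.16 ± 0.14 and -0.17 ± 0.13 in MEFs, neither past the threshold, and at -0.32 ± 0.07 in podocytes with Adriamycin in the authors' deposited tables. Mean counts of Rps27l were 4567 and 3106 in MEFs with Adriamycin and vehicle and 3366 and 1788 in podocytes, each table normalized on its own.

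A further 10 members passed in 3 comparisons. Rpl19, Rplp1, Rps10 and Rps28 rose in both MEF comparisons and fell in podocytes with Adriamycin, by 0.14 ± 0.04 for Rpl19 and 0.14 ± 0.06 for Rps10 in the authors' deposited table. Rps15a rose in these 3 comparisons, by 0.28 ± 0.08, 0.17 ± 0.06 and 0.13 ± 0.05, in the authors' deposited tables. Rps2, Rps14 and Rps25 rose in MEFs with Adriamycin and fell in both podocyte comparisons, with Rps14 at 0.20 ± 0.08 and Rps25 at 0.19 ± 0.07 in MEFs. Rpl10a and Rpl5 changed direction between drug conditions within a cell type, as given above. In no comparison did Rpl36, Rpl37a, Rps29 or Rps7 of the core pass, nor Rpl39l, the row listed as Rpl24 or the 4 pseudogenes.

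The core genes lie on 19 chromosomes, and 30 of them hold 58 snoRNA genes in their annotated span in GENCODE M21. The 87 members together took 3.42% of the summed mean count in MEFs with Adriamycin and 3.63% in MEFs with vehicle in the authors' deposited tables. Across the 76 core genes, the fold change with Adriamycin in MEFs had a Spearman rank correlation of 0.15 with exon length and 0.18 with mean count, as a description across genes of the same libraries. Its correlation with the fold change of MEFs given vehicle, which comes from other samples, was 0.53 across the same 76 genes.

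Other genes of translation rose too in knockout MEFs with Adriamycin. The shares of all tested genes against which the counts of this and the following lists stand are 16.6% higher and 16.1% lower in MEFs with Adriamycin, 17.8% and 19.6% with vehicle, 27.8% and 27.9% in podocytes with Adriamycin and 8.7% and 5.64% with vehicle. Of 20 translation factors and other genes whose mRNAs carry a TOP tract, 14 rose and 1 fell (70% and 5%), with a median of 0.31. In MEFs with Adriamycin Fau rose by 0.36 ± 0.07 in the authors' deposited table. Pabpc1, the poly(A)-binding protein, rose by 0.58 ± 0.08, and Eef1b2, an exchange subunit of elongation factor 1, by 0.39 ± 0.07 in the authors' deposited table. The gene that fell was Hnrnpa1, at -0.45 ± 0.07, and the 5 eIF3 subunit genes of the list stood between -0.10 and -0.01 and did not pass. With vehicle 3 of the 20 rose and 4 fell in MEFs (15% and 20%), near the shares of all tested genes. In podocytes 7 rose and 9 fell with Adriamycin (35% and 45%), and 0 rose and 2 fell with vehicle (10% lower).

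Ribosome assembly factors, which act in the nucleolus and cytoplasm and do not remain in the finished ribosome, gave other counts. Of 48 matched, 15 rose and 2 fell in knockout MEFs with Adriamycin (median 0.12), and 1 rose and 24 fell with vehicle (median -0.19). In podocytes 25 rose and 13 fell with Adriamycin, and 0 rose and 27 fell with vehicle. Nop56, a core protein of box C/D snoRNPs, was at 0.61 ± 0.09 with Adriamycin and 0.14 ± 0.08 with vehicle in MEFs, and rose by 1.34 ± 0.05 in podocytes with Adriamycin in the authors' deposited tables. Rrp12, an export factor of the small subunit, was at 0.04 ± 0.11 and -0.47 ± 0.10 in MEFs, and at -0.48 ± 0.07 and -0.58 ± 0.09 in podocytes, in the authors' deposited tables.

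RNA polymerase I and its factors, which make the rRNA precursor, changed as follows: of 14 genes, 1 rose and 1 fell in knockout MEFs with Adriamycin, and 0 rose and 7 fell with vehicle by DESeq2 as run by the authors (0 and 7 at an unadjusted p below 0.05). In podocytes 5 rose and 7 fell with Adriamycin and 1 rose and 4 fell with vehicle. Of 15 genes that control ribosomal protein mRNAs, 4 rose and 3 fell in MEFs with Adriamycin (26.7% and 20%) and 1 rose and 4 fell with vehicle (6.67% and 26.7%). In podocytes 5 rose and 2 fell with Adriamycin (33.3% and 13.3%) and 1 rose and 1 fell with vehicle (6.67% each). With 15 genes, each of these shares rests on at most 5 genes. Mtor fell in knockout MEFs, by 0.30 ± 0.10 with Adriamycin and 0.28 ± 0.09 with vehicle, and Larp1 rose by 0.26 ± 0.08 with Adriamycin in the authors' deposited tables. Myc was at 0.19 ± 0.17 and -0.31 ± 0.15 in MEFs, neither past the threshold, and at 0.75 ± 0.08 and -0.59 ± 0.19 in podocytes with Adriamycin and with vehicle, both past it, in the authors' deposited tables. The mitochondrial ribosome, built from a separate set of 76 genes, gave 5 rises and 17 falls in MEFs with Adriamycin, where its median was -0.12, and 2 rises and 45 falls with vehicle, where its median was -0.32. In podocytes it gave 20 rises and 28 falls with Adriamycin and 2 rises and 5 falls with vehicle.

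**Figure D4:**
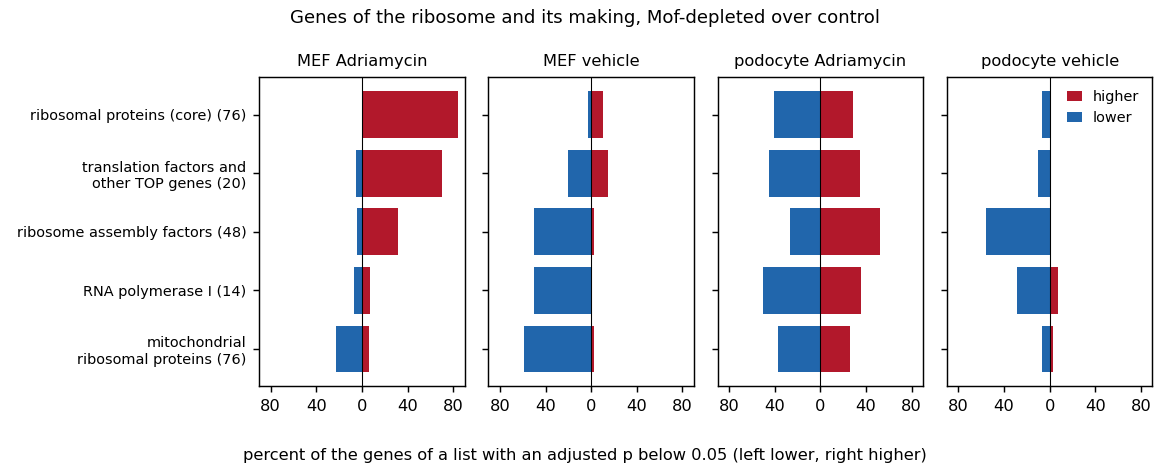
Percent of the genes of 5 lists (number of genes in brackets) past an adjusted p of 0.05 in each comparison; red bars to the right are higher and blue bars to the left lower in Mof-depleted than in control cells. Core ribosomal proteins rise in MEFs with Adriamycin (84.2%), where RNA polymerase I and mitochondrial ribosomal protein genes mostly do not, and of 48 assembly factors 24 are lower with vehicle in MEFs and 27 with vehicle in podocytes.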

How the data were processed

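Poly(A) RNA of 24 samples was sequenced, per the labels' protocols. The submitters' processing notes name TopHat2 2.0.13, featureCounts 1.4.5-p1, DESeq2 1.4.1 and GRCm38. Each of the 4 deposited tables holds a comparison the authors ran with DESeq2. The signal is the authors' mean count over the samples of a table after normalization. Log2 fold changes and standard errors are the authors' deposited values, and no source used here says whether they were shrunken. The score is the authors' Wald statistic, checked to equal the fold change over its standard error. The p-value and adjusted p-value are those deposited by the authors. MEF tables list 43626 genes, and podocyte tables only those with an adjusted p below 0.05; the number tested there, 17184 with Adriamycin and 13876 with vehicle, was found from p, its rank and the adjusted p.

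The negative Kat8 value in every table set the direction (Mof-depleted over control), so Kat8 tests no label. Members were followed by Ensembl ID; coordinates, exon lengths and gene types are from GENCODE M21 (GRCm38), and start regions from RefSeq (GRCm38.p6). A z test compared the MEF fold changes of both drug conditions and was checked on simulated data with 200 changed genes of 13973. It recovered 0.275% of simulated differences of 0.25, 21.2% of those of 0.5 and 66.6% of those of 1. The share of false calls was 15.4%, 4.93% and 4.59%. A member that did not pass this test may therefore still differ, above all by a small amount. The simulated noise was normal with the deposited standard errors, as the z test assumes. The share of false calls therefore cannot show whether those errors hold or whether the 2 normalizations match. Analyses used Python 3.11.15, pandas 2.3.3, numpy 2.4.6, scipy 1.17.1 and matplotlib 3.10.9. Named members are the 6 largest changes in each direction and the 4 smallest adjusted p per table, those changed in at least 3 tables or past the difference test, the paralogs, Rps19bp1 and the 5 highest mean counts; others were named after their values were seen, and some that the rule gives are not reported here. Members, lists and tests were chosen with earlier results of these data known. No source used here says whether counting used strand. Alternatives were a stricter threshold, other minimum counts, core genes alone, centred fold changes and adjustment over every gene with a p-value.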

Additional observations from a re-analysis of the deposited data

Results flagged for a closer look

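In MEFs the effect of the Mof knockout differed between Adriamycin and vehicle for 9 members, by the test of the difference itself (z test, Benjamini-Hochberg over all genes tested in both tables), and in each the fold change with Adriamycin was the higher. The difference in log2 fold change was 0.93 for Rpl22l1, 0.52 for Rpl10a, 0.41 for Rpl3, 0.40 for Rps20, 0.38 for Rpl12, 0.38 for Rpl13, 0.36 for Rpl14, 0.33 for Rpl18 and 0.33 for Rpl7a. Without a value per sample no member could be searched for a sample that lies far from its group.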

How the results depend on the processing

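At an adjusted p below 0.01 the members higher in MEFs with vehicle were 3 in place of 9, those lower in podocytes with vehicle 1 in place of 6, and those with a higher fold change with Adriamycin than with vehicle 3 in place of 9. This last count was 18 with fold changes less the median of all tested genes and 4 with fold changes less the median of genes whose mean count reached 1000, where the members higher in MEFs with Adriamycin were 41 in place of 67; the second centring was chosen after seeing the data. The other counts stayed within 1.5 times the main ones under the alternatives run, and the median over members ran from 0.19 to 0.28 in MEFs with Adriamycin and from 0.01 to 0.03 with vehicle. Adjusted over every gene with a p-value, 7 members no longer passed in MEFs with Adriamycin, among them Rpl36al, Rps14, Rps25, Rps27l, Rps6 and Rpsa (adjusted p 0.0526 to 0.0832, Benjamini-Hochberg on the p of DESeq2). Rplp2 with vehicle then had 0.0685, and 0.0575 with centred fold changes. Rpl13, Rpl18 and Rpl7a had 0.0527, 0.0527 and 0.0705 in the difference over all genes with a p-value. No paired analysis was possible because the tables hold no value per sample, and leaving out a replicate, a replicate block and another normalization were not run for the same reason. The unknown depth limits members at low counts most: the SE of Rpl39l was 0.36 in MEFs with Adriamycin.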
